A study of Mus musculus with 18 samples.

Results

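Lymphocytes were followed in mouse livers and liver tumours through 10 marker genes among the 54838 genes of the expression table. The 10 genes were chosen by name: Cd3e, Cd3g, Cd4 and Cd8a for T cells, Nkg7 and Gzma for natural killer (NK) and cytotoxic cells, and Cd79a, Ms4a1, Ighm and Jchain for the B lineage. All 10 were found in the table. Levels were read in 18 samples, in 6 groups of 3, as TPM, a share of the library's reads that is corrected for gene length and adds up to 1000000 in each sample. Single samples within a group differed widely, the 4 T cell markers lay under 1 TPM on average, and none of the 8 markers that could be tested differed between groups beyond that spread after adjustment over all genes.

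The mice were C57BL/6 and 36 weeks old by their labels. WT mice were wild type. GKO mice lacked the miR-181ab1 cluster, which encodes miR-181a and miR-181b, in every cell of the body, so their lymphocytes lacked it too. Tumours and the surrounding non-tumour liver (here non-tumours) came from mice of each genotype given 25 mg/kg diethylnitrosamine (DEN) at postnatal day 12, and normal livers came from untreated mice of each genotype. DEN is a liver carcinogen that hepatocytes activate. The labels do not say whether the 3 samples of a group came from separate animals, nor whether tumours and non-tumours came from the same ones, so p-values measure only the spread between these samples. The libraries were made from whole tissue pieces. In such bulk samples fewer cells of a type and less RNA per cell cannot be told apart.

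T cells recognise antigen through a receptor that signals through the CD3 chains, and CD4 and CD8 divide them into helper and cytotoxic cells. NK cells and cytotoxic T cells kill with granules that hold granzymes. B cells carry IgM on their surface with the CD79 chains, and the plasma cells they give rise to secrete antibody joined by the J chain. The liver holds many resident NK and T cells, and lymphocytes can gather in foci around portal tracts and tumours. MiR-181a is abundant in developing T cells of the thymus, where it sets the strength of T cell receptor signalling. The sequences of the deleted miRNAs are shown because the genotype is defined by them, and capitals mark the seed (bases 2 to 8), which the pair share:
mmu-miR-181a-5p: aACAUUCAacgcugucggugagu
mmu-miR-181b-5p: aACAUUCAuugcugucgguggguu
They lie at chr1:137966468-137966490 and chr1:137966650-137966673 on the plus strand of GRCm38.p6, and the sequences are from RefSeq. The same mature sequences are also made from a second locus that was not deleted.

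The samples had between 11925055 and 20751348 reads on genes, with a median of 16973801. Pearson's r of log2(TPM + 1) between samples of a group was 0.919 to 0.982. WT tumour 3 was the least alike within a group, with r of 0.919 and 0.921 to WT tumours 1 and 2, which had r = 0.982 to each other. WT non-tumour 2 had r of 0.929 and 0.933 to the other WT non-tumours. The precursor genes Mir181a-1 and Mir181b-1 had 0 reads in nearly all libraries of both genotypes (1 read in GKO tumour 3), so the table does not check the genotype. The reason for the missing reads was not tested.

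TPM is a per-length scale, so levels of different genes can be set side by side as far as the lengths fit. By all annotated exons Nkg7 has 914 bases and Cd3g 3269, so similar median reads, 15 and 14, give Nkg7 the higher level. Ighm, the constant region of IgM heavy chain, had the highest mean level, 12.3 ± 6.91 TPM (SD, n = 18). Cd79a, a signalling chain of the B cell receptor, had 5.65 ± 2.92 TPM. Nkg7, a cytotoxic granule protein, had 2.64 ± 1.65 TPM, Jchain had 1.99 ± 1.56 TPM and Gzma, granzyme A, had 1.88 ± 1.52 TPM. These 5 genes had the higher levels. Of the other 5, the means over 18 samples were 0.601 ± 0.324 TPM for Cd3g, 0.503 ± 0.405 for Cd8a, 0.419 ± 0.212 for Cd4, 0.368 ± 0.277 for Cd3e and 0.339 ± 0.252 for Ms4a1 (CD20). The 4 T cell markers and CD20 were thus each measured at under 1 TPM on average. For comparison on the same scale, the hepatocyte gene Alb had a mean level of 58679 TPM.

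Behind these levels stood few reads. The median over the 18 samples was 8 reads for Cd3e, 11 for Gzma and Cd8a, 12 for Cd4, 14 for Cd3g and Ms4a1, 15 for Nkg7, 38 for Jchain, 60 for Cd79a and 171 for Ighm. Cd3e had 0 reads in WT normal liver 2, which allows a level of up to 0.0827 TPM (3 reads), and Cd8a had 0 reads in WT normal liver 1, which allows up to 0.121 TPM. Such limits cover counting error only, since the reads carry no molecular identifiers. The T cell markers were therefore near the limit of these libraries, while Ighm and Cd79a were well above it.

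The genes lie on 7 chromosomes of GRCm38 (mm10). Cd3e (ENSMUSG00000032093, chr9:44998740-45009627) and Cd3g (ENSMUSG00000002033, chr9:44969572-44980431) are neighbours on the minus strand. Cd4 (ENSMUSG00000023274, chr6:124864692-124888221, minus strand) and Cd8a (ENSMUSG00000053977, chr6:71373427-71379173, plus strand) share a chromosome, as do Nkg7 (ENSMUSG00000004612, chr7:43437073-43438249) and Cd79a (ENSMUSG00000003379, chr7:24897381-24902197), both on the plus strand. Gzma (ENSMUSG00000023132, chr13:113093825-113100981), Ms4a1 (ENSMUSG00000024673, chr19:11249675-11266241), Ighm (ENSMUSG00000076617, chr12:113418558-113422730) and Jchain (ENSMUSG00000067149, chr5:88519809-88527891) are on the minus strand. Cd3e overlaps 2 other annotated genes (Gm48719, antisense, and Gm48720 on the same strand) and Ms4a1 overlaps the antisense gene 4930526L06Rik. Whether the counting used strand is not given in the sources used here, so reads of Cd3e and Ms4a1 cannot be told apart from those of antisense transcripts.

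Among the T cell markers, the CD3 chain gene Cd3e had 0.217, 0 and 0.564 TPM in WT normal livers 1 to 3 and 0.210, 0.182 and 0.634 TPM in GKO normal livers. It had 1.07, 0.270 and 0.410 TPM in WT non-tumours and 0.751, 0.438 and 0.243 TPM in GKO non-tumours. In tumours Cd3e had 0.0593, 0.656 and 0.194 TPM in WT and 0.159, 0.420 and 0.149 TPM in GKO. The groups overlapped, and WT non-tumour 1 stood above every other sample. Cd3g, another CD3 chain, had a range from 0.139 TPM in WT tumour 3 to 1.30 TPM in WT non-tumour 1. The next levels of Cd3g were 1.09 TPM in GKO non-tumour 2, 1.08 in GKO normal liver 3 and 1.04 in WT tumour 2. The high samples of Cd3g were thus spread over 4 groups.

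Cd4, the co-receptor of helper T cells, had 0.450, 1.03 and 0.365 TPM in WT tumours, and GKO tumours had 0.591, 0.273 and 0.272 TPM. In WT non-tumours Cd4 had 0.241, 0.304 and 0.356 TPM, and in GKO non-tumours 0.475, 0.728 and 0.154 TPM. The WT tumours did not overlap the WT non-tumours, but the nearest samples had 0.356 and 0.365 TPM, which are 12 and 13 reads. Normal livers had 0.256 to 0.530 TPM in WT and 0.291 to 0.577 TPM in GKO. Cd8a, the co-receptor of cytotoxic T cells, had 0, 0.433 and 0.237 TPM in WT normal livers and 0.336, 0.0682 and 0.291 TPM in GKO normal livers. It had 1.17, 0.370 and 0.164 TPM in WT non-tumours and 1.05, 1.02 and 0.477 TPM in GKO non-tumours. In tumours Cd8a had 1.30, 0.904 and 0.125 TPM in WT and 0.536, 0.370 and 0.201 TPM in GKO. No normal liver of either genotype was above 0.433 TPM, and all 3 GKO non-tumours were above the GKO normal livers.

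Of the cytotoxic genes, Nkg7 had 2.90, 0.862 and 2.62 TPM in WT normal livers and 1.34, 2.71 and 1.29 TPM in GKO normal livers. It had 6.66, 1.88 and 1.70 TPM in WT non-tumours and 3.21, 5.03 and 1.90 TPM in GKO non-tumours. In tumours Nkg7 had 1.59, 6.13 and 1.49 TPM in WT and 2.13, 2.01 and 2.13 TPM in GKO. The 3 GKO tumours were close together at 2.09 ± 0.0724 TPM (SD, n = 3), while WT tumour 2 and WT non-tumour 1 stood far above the other samples of their groups. Gzma had 0.293, 0.671 and 1.14 TPM in WT normal livers and 4.11, 0.852 and 2.61 TPM in WT non-tumours. It had 0.365, 1.36 and 5.26 TPM in GKO normal livers and 4.44, 1.27 and 2.22 TPM in GKO non-tumours. In tumours Gzma had 1.44, 2.66 and 0.338 TPM in WT and 0.753, 3.16 and 0.848 TPM in GKO. No pair of groups compared below was free of overlap for Gzma or Nkg7.

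In the B lineage, Cd79a had 5.86, 4.17 and 6.38 TPM in WT normal livers and 2.94, 5.79 and 10.2 TPM in GKO normal livers. It had 12.9, 1.60 and 5.08 TPM in WT non-tumours and 7.01, 8.58 and 4.85 TPM in GKO non-tumours. In tumours Cd79a had 5.81, 7.44 and 4.35 TPM in WT and 0.966, 4.95 and 2.93 TPM in GKO. The lowest level of all 18 samples was in GKO tumour 1 and the highest in WT non-tumour 1. Ms4a1, the surface protein CD20 of mature B cells, had 0.0350, 0.217 and 0.138 TPM in GKO tumours and 0.475, 0.474 and 0.261 TPM in GKO non-tumours, which did not overlap. In WT, Ms4a1 had 0.645, 0.0787 and 0.256 TPM in tumours and 0.649, 0.139 and 0.348 TPM in non-tumours. Normal livers had 0.294 to 0.357 TPM in WT and 0.160 to 1.06 TPM in GKO, where liver 3 was the highest of all samples.

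Ighm had 11.6, 16.1 and 9.85 TPM in WT normal livers and 28.4, 12.2 and 13.8 TPM in GKO normal livers. It had 20.8, 3.25 and 6.91 TPM in WT non-tumours and 11.0, 26.5 and 11.8 TPM in GKO non-tumours. In tumours Ighm had 7.95, 9.62 and 7.27 TPM in WT and 5.16, 12.3 and 6.01 TPM in GKO. The group means ran from 7.81 ± 3.87 TPM in GKO tumours to 18.2 ± 8.92 TPM in GKO normal livers (SD, n = 3 each). Jchain had another pattern. It had 1.76, 2.46 and 3.01 TPM in WT normal livers and 4.37, 2.42 and 2.15 TPM in GKO normal livers. In non-tumours it had 2.32, 0.438 and 0.427 TPM in WT and 1.12, 2.64 and 1.18 TPM in GKO, and in WT tumours 0.240, 1.02 and 0.495 TPM. In GKO tumours Jchain had 0.430, 6.12 and 3.19 TPM, so that GKO tumour 2 was the highest of the 18 samples and GKO tumour 1 ranked 16.

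**Figure D1:**
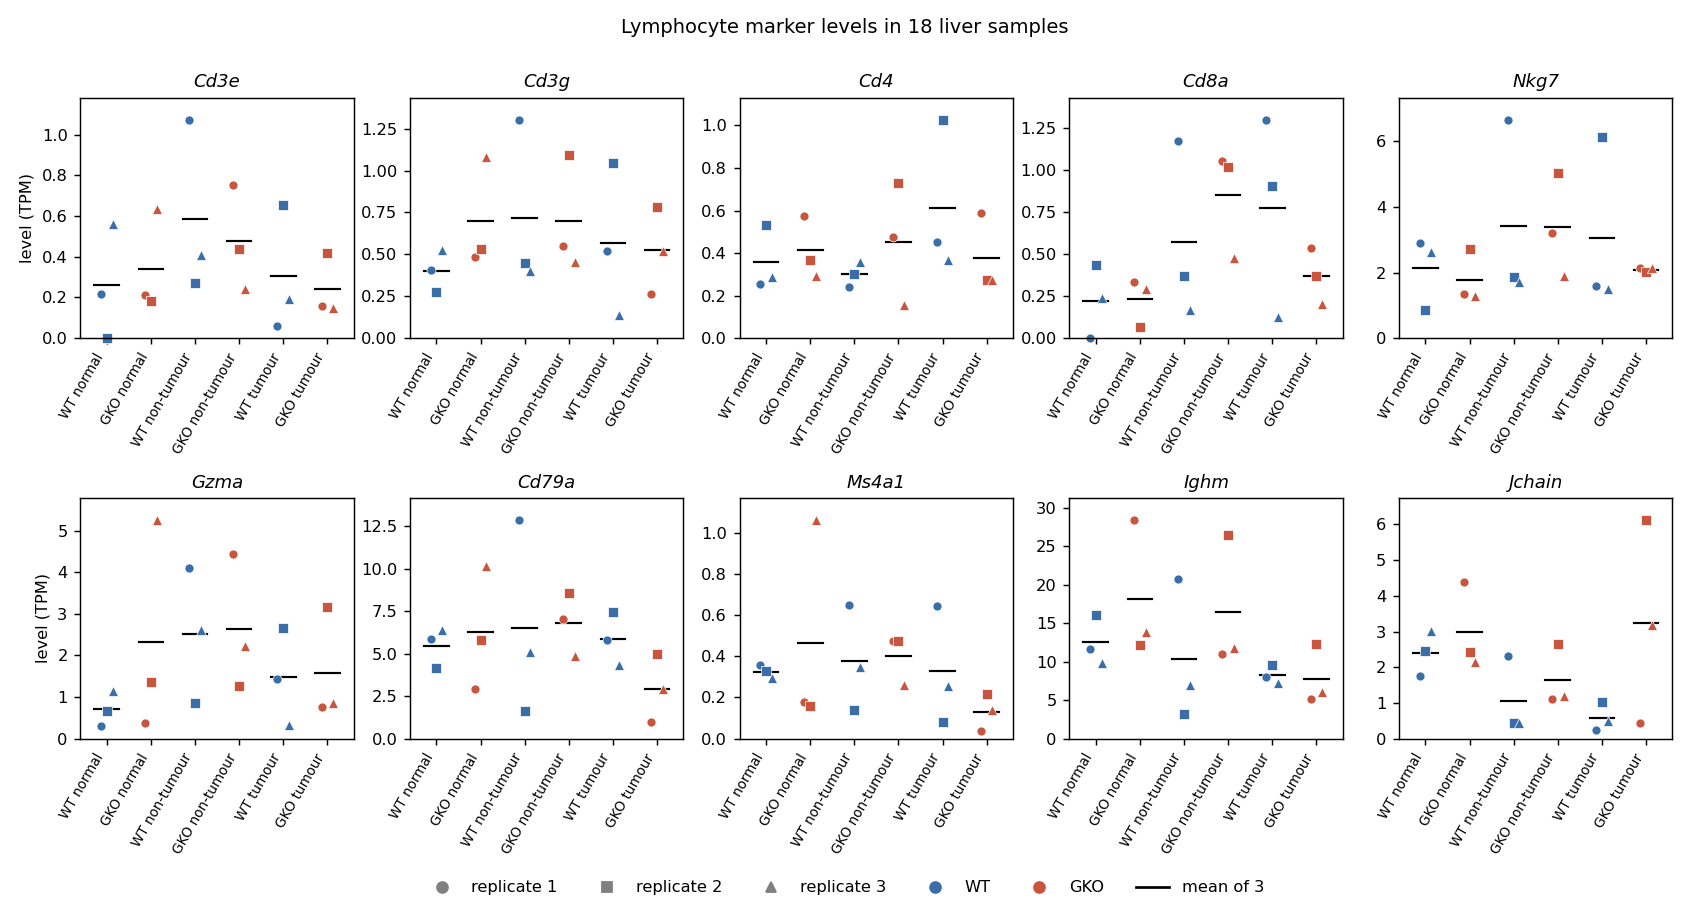
Level of each of the 10 lymphocyte markers (TPM, linear axis from 0) in the 18 samples, with circles, squares and triangles for replicates 1, 2 and 3, blue for WT, red for GKO and a bar at each group's mean. The groups overlap in nearly every panel, WT non-tumour 1 is the highest sample for Cd3e, Cd3g, Nkg7 and Cd79a, and Jchain in GKO tumours spans 0.430 to 6.12 TPM.

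Ranking the 6 group means of each marker gave 50 steps between neighbouring groups. Of these 50 steps, 2 were larger than the larger SD of the pair, and 1 was without overlap. Both were steps down to GKO tumours, which had the lowest mean of the 6 groups: for Cd79a, from 5.47 ± 1.15 TPM in WT normal livers to 2.95 ± 1.99 TPM, and for Ms4a1, from 0.326 ± 0.0314 TPM in WT normal livers to 0.130 ± 0.0914 TPM (SD, n = 3 each). For the other 8 markers no group could be set above its neighbour beyond the spread. Such steps were not counted over all genes, so the 2 of 50 cannot be set against a share and are a description.

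The samples differed more than the groups. WT non-tumour 1 was the highest of 18 for 4 markers and among the top 3 for 8 of 10. Its T and NK markers summed to 14.6 TPM and its B markers to 36.6 TPM. The other WT non-tumours had 4.12 and 5.64 TPM for T and NK markers and 5.42 and 12.8 TPM for B markers. GKO non-tumour 2 was among the top 3 for 5 markers, with sums of 9.57 and 38.2 TPM. In both of these samples markers of T, NK and B cells were high together, except Cd4 in WT non-tumour 1 (0.241 TPM) and Gzma in GKO non-tumour 2 (1.27 TPM).

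In other samples the lineages parted. WT tumour 2 had 12.4 TPM of T and NK markers, with Nkg7 at 6.13 and Cd4 at 1.03 TPM, and 18.1 TPM of B markers, below WT normal livers. GKO normal liver 1 had only 3.31 TPM of T and NK markers with 35.9 TPM of B markers, of which Ighm made up 28.4 TPM and Cd79a 2.94 TPM. GKO tumour 1 was among the bottom 3 for 5 markers, and its Cd79a and Ms4a1 summed to 1.00 TPM, the lowest of 18. WT non-tumour 2, which stood apart from its group over all genes, had the lowest B sum at 5.42 TPM and the lowest Ighm of all.

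**Figure D2:**
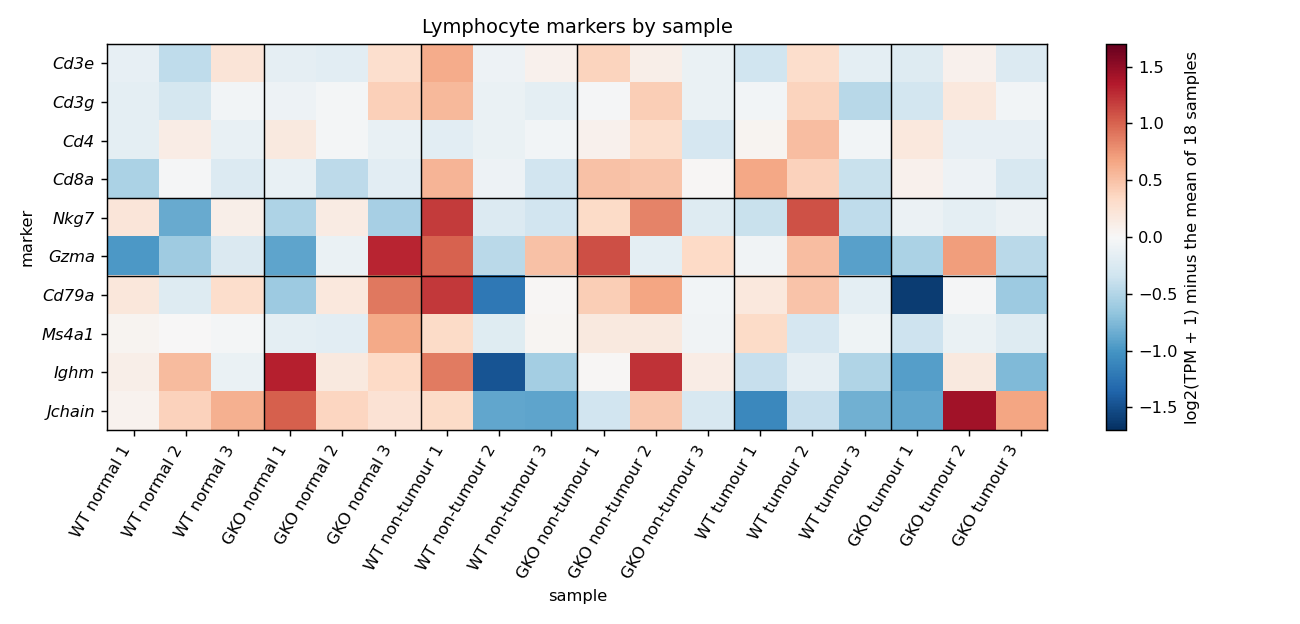
Each marker's log2(TPM + 1) minus its mean over the 18 samples (colour, red above and blue below), with markers in rows (T, NK and B lineage separated by lines) and samples in columns (groups separated by lines). WT non-tumour 1 is red in 9 rows, the lowest cell of all is Cd79a in GKO tumour 1 (0.966 TPM), and in GKO tumours 2 and 3 Jchain is above its mean while Cd79a is not.

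Differences between groups were tested with limma on log2(TPM + 1) over every gene whose mean reached 0.5 TPM among the samples of a comparison, and p-values were adjusted by Benjamini-Hochberg. Fold changes on this scale understate changes of genes near 1 TPM. Higher and lower in counts of markers and listed genes mean the sign of the difference in mean log2(TPM + 1), which can differ from that of the TPM means. Of the 10 markers, 6 passed this filter in every comparison (Cd3g, Nkg7, Gzma, Cd79a, Ighm and Jchain), Cd3e and Cd8a in some, and Cd4 and Ms4a1 in none. In 7 comparisons of groups and 2 tests of a difference between genotypes, 61 tests of markers were made. Of these, 0 had an adjusted p under 0.05 and 3 had an unadjusted p under 0.05, which is 4.92%. Over all genes tested, the share at an unadjusted p under 0.05 ran from 3.96% to 31.7% between comparisons. The lowest adjusted p was 0.12. By limma-voom on the reads recovered from the TPM values, 0 markers were called in any comparison.

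The comparison of GKO tumours with WT tumours asks whether tumours that grew without miR-181ab1 held different lymphocyte RNA. Of the 7 markers tested, 2 had higher and 5 lower mean log2 levels in GKO tumours (40% of all genes were lower). None was called, at an adjusted p or at an unadjusted p under 0.05, where 0.0215% and 8.87% of the 13964 genes tested were. With the replicate numbers as a block, 0 genes were called in place of 3. Cd79a had 2.95 ± 1.99 TPM in GKO and 5.87 ± 1.54 TPM in WT tumours (SD, n = 3 each). On the log2 scale the difference was -0.91 (standard error 0.42, 95% interval -1.91 to 0.08, adjusted p = 0.575 from limma). Jchain went the other way in its mean, with 3.25 ± 2.85 against 0.584 ± 0.395 TPM, a difference of 1.17 with a 95% interval of -0.17 to 2.51 (standard error 0.57, limma adjusted p = 0.594). For Cd3g, Cd8a, Nkg7, Gzma and Ighm the log2 fold changes lay between -0.32 and 0.06. These intervals are wide: that of Nkg7 ran from -1.20 to 0.77 and that of Gzma from -1.07 to 1.18. Without WT tumour 2, 3 of 6 markers were lower, with a median log2 fold change of 0.12 in place of -0.15, and without GKO tumour 1, 3 of 7 were lower, with a median of 0.06.

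WT tumours were compared with WT non-tumours to ask how lymphocyte RNA in a tumour stood against that of the liver around it. Here 4.23% of 14003 genes were called (19.9% at an unadjusted p under 0.05) and 0 of 7 markers by either. Of the 7 markers 4 had lower mean log2 levels in tumours, as had 52.1% of all genes, with log2 fold changes from -0.51 (Gzma) to 0.17 (Cd8a) and a lowest adjusted p of 0.627 by limma. Ighm had 8.28 ± 1.21 TPM in tumours and 10.3 ± 9.25 in non-tumours, so that its TPM mean was lower in tumours, while its log2 fold change was 0.03 (95% interval -1.28 to 1.35). The wide interval goes with the non-tumours, in which Ighm ran from 3.25 to 20.8 TPM. The count of lower markers rested on single samples, at 1 of 8 without WT non-tumour 1, 2 of 7 without WT tumour 3 and 6 of 7 without WT non-tumour 2 or 3. Cd4, which was not tested for its low level, was the marker without overlap in this comparison, where 24.8% of the genes tested were without overlap.

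In GKO mice the same comparison gave the lowest adjusted p-values of the markers. Of 7 markers tested, 6 had lower mean log2 levels in tumours than in non-tumours and 0 were called, where 37.3% of 14092 genes were lower and 11.7% were called. At an unadjusted p under 0.05 it was 1 marker, and 31.7% of all genes. Cd79a had 2.95 ± 1.99 TPM in tumours and 6.82 ± 1.87 TPM in non-tumours (SD, n = 3 each). Its log2 fold change was -1.10 (standard error 0.41, 95% interval -2.06 to -0.14, unadjusted p = 0.0302, adjusted p = 0.12 from limma). Ighm had 7.81 ± 3.87 and 16.4 ± 8.74 TPM, a difference of -0.96 on the log2 scale with a standard error of 0.42 (limma adjusted p = 0.162). With the replicate numbers as a block, Ighm had an adjusted p of 0.0457 by limma, the single call of a marker under any alternative. The labels do not say that these numbers pair the samples. By deviations from group means, same-numbered tumours and non-tumours had r of 0.124, 0.069 and 0.041, and the other pairs -0.084 to 0.022. The median log2 fold change of all genes was 0.20 here, and -0.44 over the 7 markers tested. With each sample centred on its median, Cd79a had -1.33 and Ighm -1.20.

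Jchain was the exception, with 3.25 ± 2.85 TPM in GKO tumours and 1.65 ± 0.859 TPM in GKO non-tumours, a difference of 0.45 on the log2 scale with a standard error of 0.56 (limma adjusted p = 0.601). The log2 fold change was -0.43 for Cd8a, -0.44 for Nkg7, -0.52 for Gzma and -0.15 for Cd3g, with adjusted p-values of 0.221 to 0.678 by limma. Ms4a1, which was not tested for its low level, did not overlap, where 38.3% of the genes tested were without overlap. Whether tumours and non-tumours differed by another amount in GKO than in WT was tested by the interaction of genotype and tissue, which called 0 of 7 markers and 0.0142% of 14106 genes (0 markers and 10.5% at an unadjusted p under 0.05). Of the 7 markers 6 were below 0, as were 32.4% of all genes, and 3 of 7 without WT tumour 2. The difference was largest for Cd79a, at -1.26 (standard error 0.77, 95% interval -2.95 to 0.43, limma adjusted p = 0.528), where the median over all genes was 0.23.

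**Figure D3:**
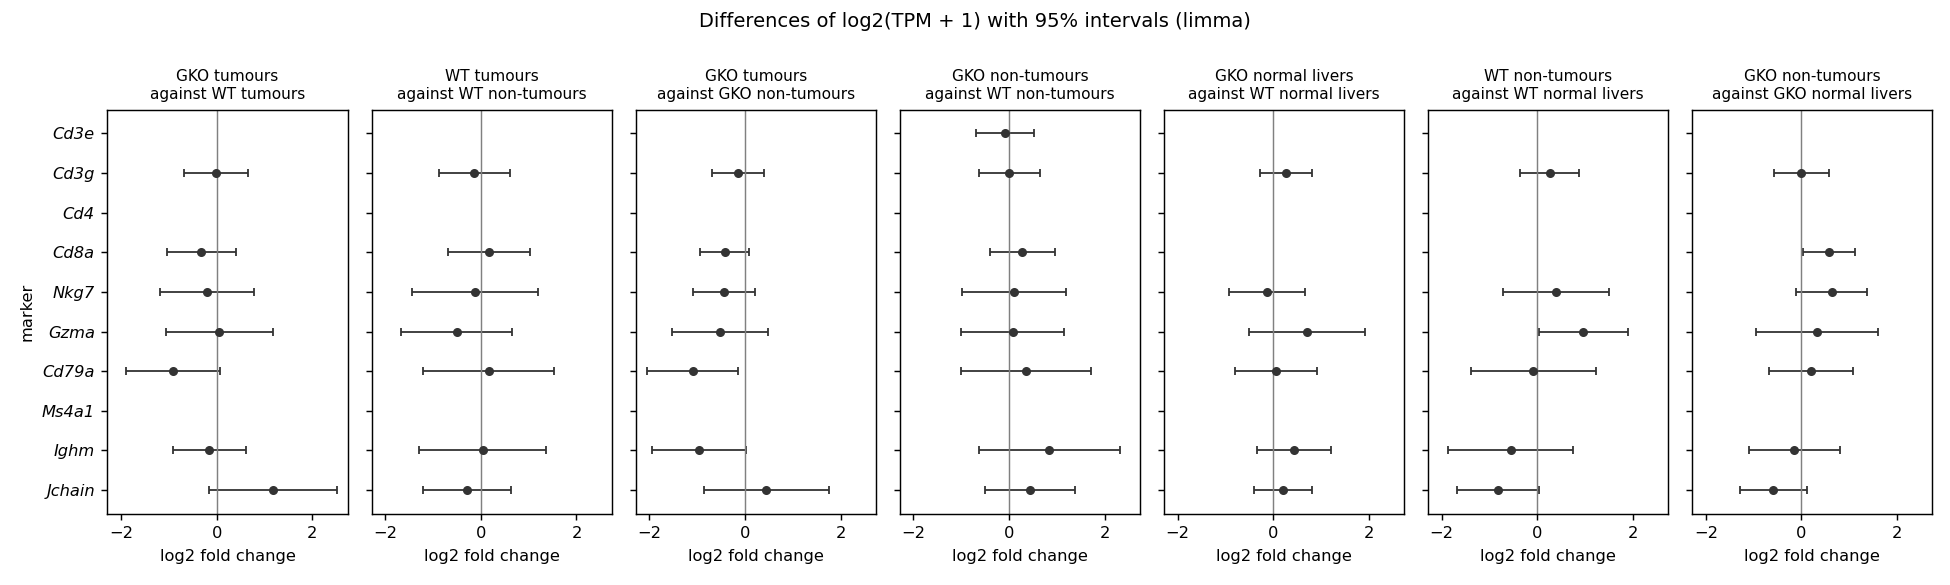
Log2 fold change of each tested marker (points) with its 95% interval from limma (bars) in the 7 comparisons, and a grey line at no difference; markers without a point were below a mean of 0.5 TPM. The interval excludes 0 for Cd79a in GKO tumours against GKO non-tumours, for Gzma in WT non-tumours against WT normal livers and for Cd8a in GKO non-tumours against GKO normal livers, none of which passed adjustment over all genes.

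Between genotypes outside the tumours no marker differed beyond the spread. In GKO against WT non-tumours 7 of 8 markers had higher mean log2 levels, with log2 fold changes from -0.08 (Cd3e) to 0.84 (Ighm, 95% interval -0.62 to 2.31), and 0 were called, as for 0% of 13768 genes by limma. At an unadjusted p under 0.05 there were 0 markers and 799 genes (5.8%), and 66.5% of all genes were lower. The median of all genes was -0.15 there and 0.19 over the markers. Without WT non-tumour 2, 5 of 8 markers were lower with a median of -0.11, without WT non-tumour 1, 0 of 7 were lower with a median of 0.59, and without any other sample 0 to 3 were lower with a median above 0. In GKO against WT normal livers 5 of 6 markers had higher mean log2 levels, up to 0.71 for Gzma (95% interval -0.51 to 1.92), with 0 called and 0% of 13099 genes called by limma. At an unadjusted p under 0.05 there were 0 markers and 519 genes (3.96%), and 37.6% of all genes were lower. The intervals for the markers were 0.54 to 1.22 wide on either side of the estimate in normal livers and 0.61 to 1.47 in non-tumours.

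Non-tumours and normal livers of one genotype were compared to see what the DEN-treated liver held. In WT, 0 of 6 markers and 0.00744% of 13440 genes were called, and 1 marker and 24.4% of genes had an unadjusted p under 0.05. Of the 6 markers 3 had lower mean log2 levels, against 20.3% of all genes, and 0 were without overlap, against 33.9%. Without WT non-tumour 1, 4 of 5 were lower. Gzma had 2.53 ± 1.63 TPM in non-tumours and 0.702 ± 0.426 TPM in normal livers, or 0.96 on the log2 scale with a standard error of 0.40 (limma unadjusted p = 0.0447, adjusted p = 0.197). Centred on each sample's median it was 0.59, as the median of all genes was 0.32. Jchain had 1.06 ± 1.09 against 2.41 ± 0.627 TPM, or -0.83 with a standard error of 0.36 (limma unadjusted p = 0.0563, adjusted p = 0.213), and -1.20 when centred. In GKO, 0 of 7 markers and 0% of 13530 genes were called by limma, and 1 marker and 703 genes (5.2%) had an unadjusted p under 0.05. Of the 7 markers 3 had lower mean log2 levels, against 35% of all genes. Cd8a had 0.850 ± 0.323 against 0.232 ± 0.143 TPM, without overlap, where 8.73% of genes tested were without overlap. On the log2 scale Cd8a differed by 0.58 with a standard error of 0.23 (limma unadjusted p = 0.0392, adjusted p = 0.952). Jchain had 1.65 ± 0.859 against 2.98 ± 1.22 TPM, or -0.59 with a standard error of 0.30 (limma unadjusted p = 0.0861). The interaction of genotype and treatment called 0 of 6 markers and 0% of 13488 genes by limma (0 markers and 830 genes, or 6.15%, at an unadjusted p under 0.05). Of the markers 2 were below 0, against 71.4% of all genes, and the median over all genes was -0.22. The largest marker difference was -0.63 for Gzma (95% interval -2.29 to 1.02).

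Other genes of the same lineages were read from lists that hold none of the 10 markers. In GKO tumours against GKO non-tumours, B cell genes were lower for 8 of 9 tested, 1 of them was called, 5 had an unadjusted p under 0.05 and 6 did not overlap, against 3.97% called lower, 10.1% lower at an unadjusted p under 0.05 and 38.3% without overlap over all genes. Cd79b, the partner of Cd79a, had 1.97, 2.82 and 2.21 TPM against 5.27, 8.12 and 4.25 TPM and fell by 1.01 (standard error 0.25, limma adjusted p = 0.0441). Every tumour lay below every non-tumour. The call of Cd79b was lost without any single one of the 6 samples (limma adjusted p from 0.0639 to 0.112), and without GKO non-tumour 3 only 229 genes were called in place of 1652.

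T cell genes were lower for 8 of 10 tested in that comparison, with 1 called and 4 at an unadjusted p under 0.05. Trbc2, a constant region of the T cell receptor beta chain that is nearly identical to its neighbour Trbc1, had 2.82, 2.30 and 1.58 TPM in GKO tumours and 7.01, 12.0 and 5.56 TPM in GKO non-tumours. Trbc2 fell by 1.46 (standard error 0.30, limma adjusted p = 0.0254), a call that was lost without GKO non-tumour 2 or 3 or GKO tumour 2 or 3 (limma adjusted p from 0.0513 to 0.0775). Of 7 genes of the NK and cytotoxic list 5 were lower and 1 was called. Cd7, found on T and NK cells, had 0.955, 1.30 and 0.645 TPM against 2.37, 3.49 and 2.63 TPM and fell by 0.96 (standard error 0.22, limma adjusted p = 0.034). Its call was lost without GKO non-tumour 2 or 3 or GKO tumour 1 or 3, with a limma adjusted p from 0.0738 to 0.121, and Cd7 overlaps an antisense gene. In WT tumours against WT non-tumours the log2 fold change was 0.09 for Cd79b, -0.22 for Trbc2 and 0.07 for Cd7, with adjusted p-values of 0.918 to 0.964 by limma. The interaction did not call any of these 3 genes (limma adjusted p from 0.498 to 0.597), so a difference between the genotypes was not shown.

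Plasma cell genes varied widely among the GKO tumours. Of 9 tested in GKO tumours against GKO non-tumours, 7 were lower and 0 were called (1 at an unadjusted p under 0.05). Igha, the heavy chain of IgA, had 1.46, 39.7 and 25.9 TPM in GKO tumours, where samples 2 and 3 were the highest of all 18. WT tumours had 3.49, 6.34 and 0.170 TPM of Igha, and GKO non-tumours 2.44, 5.69 and 4.56 TPM. Igkc, the constant region of kappa light chain, had 10.6, 139.5 and 77.9 TPM in GKO tumours, so that sample 1 was the lowest of 18 and sample 2 ranked 3. Jchain thus followed Igha and Igkc across the 3 GKO tumours. Cd79a had the same order of samples, with 0.966, 4.95 and 2.93 TPM, as had Cd79b over a narrower range, from 1.97 to 2.82 TPM. Other genes of the B cell list did not all have this order, as with 3.42, 1.61 and 1.46 TPM of Cd72. The summed level of cholangiocyte genes was also low in GKO tumour 1 (86.0 TPM) and high in GKO tumours 2 and 3 (1022 and 618.4 TPM), where no other sample of the 18 was above 126.5 TPM; its part in these levels was not tested. Igha had a log2 fold change of 2.04 in GKO against WT tumours (standard error 1.14, limma adjusted p = 0.645). Ighg2c, an IgG heavy chain, had 1.71, 5.99 and 4.87 TPM in GKO tumours and 0.274, 0.184 and 0.171 TPM in WT tumours. They did not overlap, as for 14.7% of all genes, and the WT tumours had only 3, 2 and 2 reads. On the log2 scale Ighg2c differed by 1.99 (standard error 0.36, limma unadjusted p = 0.000943, adjusted p = 0.27). Normal livers had 4.11, 4.16 and 2.17 TPM of Ighg2c in WT and 7.38, 0.936 and 0.975 TPM in GKO. Non-tumours had 4.04, 0.369 and 0.451 TPM in WT and 2.89, 11.3 and 3.27 TPM in GKO, so GKO tumours did not stand above the other groups. Near-identical IgG constant regions can share reads, so the split between them is uncertain.

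**Figure D4:**
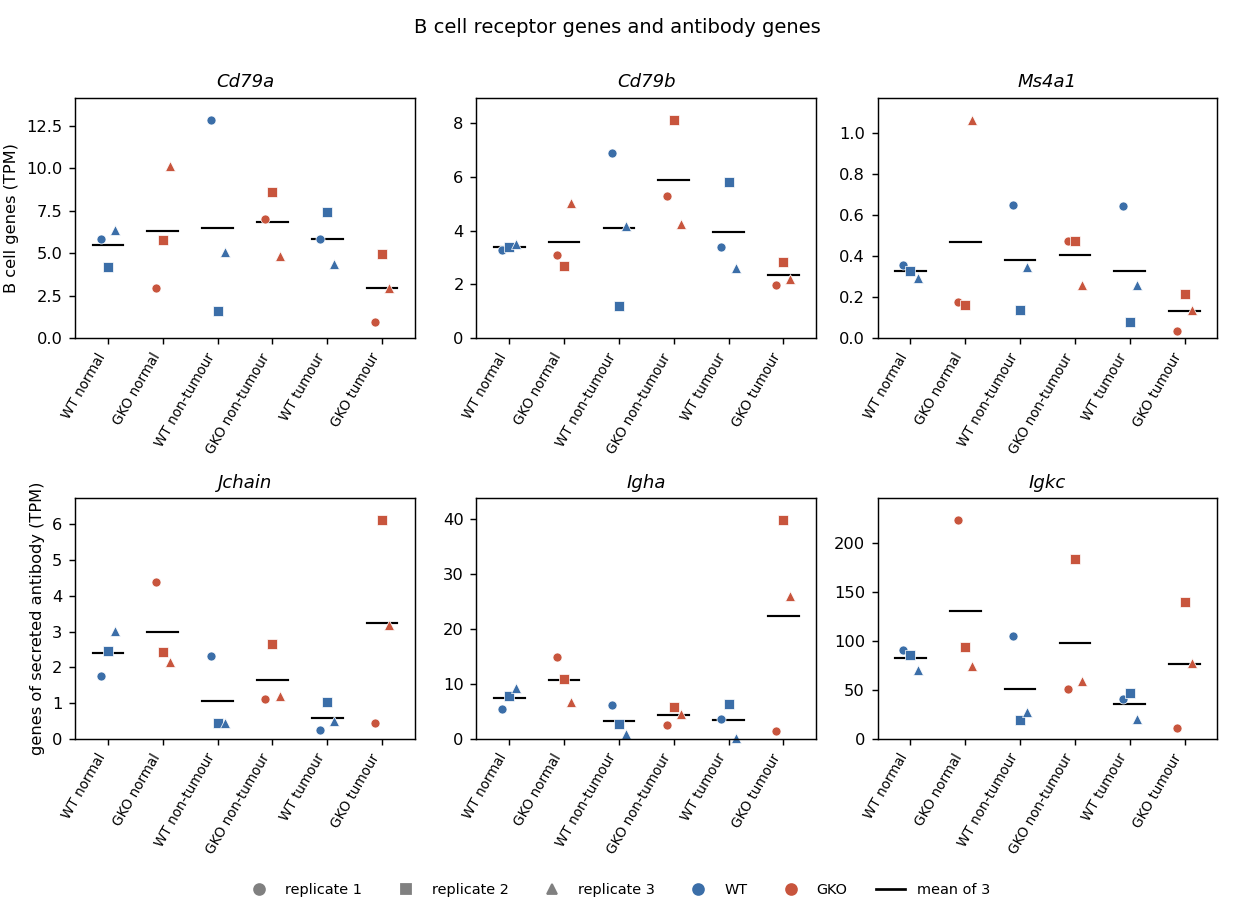
Levels (TPM, linear axes from 0) of the B cell genes Cd79a, Cd79b and Ms4a1 (top) and of the antibody genes Jchain, Igha and Igkc (bottom) in the 18 samples, with circles, squares and triangles for replicates 1, 2 and 3, blue for WT, red for GKO and a bar at each group's mean. In the 3 GKO tumours Cd79b runs from 1.97 to 2.82 TPM, Cd79a from 0.966 to 4.95 TPM and Igha from 1.46 to 39.7 TPM, with replicate 1 lowest and replicate 2 highest for each.

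Some antibody genes had lower levels in DEN-treated non-tumours than in normal livers, with 0 called in either genotype. Igha had 6.11, 2.66 and 0.806 TPM in WT non-tumours and 5.30, 7.68 and 9.26 TPM in WT normal livers (log2 fold change -1.19, standard error 0.48, unadjusted p = 0.0413, adjusted p = 0.192 from limma). In GKO it had 2.44, 5.69 and 4.56 TPM in non-tumours and 14.8, 10.8 and 6.56 TPM in normal livers. These did not overlap, as for 8.73% of the genes tested (log2 fold change -1.15, limma unadjusted p = 0.0101, adjusted p = 0.801). Of 8 plasma cell genes tested in WT, 7 were lower and 2 had an unadjusted p under 0.05, against 2.04% of all genes, with a median log2 fold change of -1.03, and of 10 tested in GKO, 5 were lower, with a median of -0.12. The same direction was measured for Jchain in both genotypes. T cell genes were higher in GKO non-tumours for 11 of 11 tested, with 0 called and 4 at an unadjusted p under 0.05 (Cd3d, Cd8b1, Trac and Trbc2), where 4.29% of all genes were higher at that p, and beside a median of 0.49 over the list and 0.08 over all genes. Beside them, 10 of 10 pan-leukocyte genes (median 0.46) and 12 of 12 Kupffer cell and macrophage genes (median 1.12) were higher in GKO non-tumours, with 0 called, and their part in the T cell levels was not tested. In WT 8 of 11 T cell genes were higher, with 0 called, a median of 0.28 over the list and 0.32 over all genes, of which 20.3% were lower.

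A pair of listed genes rose in WT tumours, where 2.16% of all genes were called higher. Zap70, the kinase that CD3 chains recruit in T and NK cells, had 49.6, 54.0 and 27.0 TPM in WT tumours and 11.5, 12.0 and 10.1 TPM in WT non-tumours, and rose by 1.81 on the log2 scale (standard error 0.30, adjusted p = 0.024 from limma). In the same tumours Cd3e, Cd3g, Cd4 and Cd8a together summed to 2.32, 3.63 and 0.823 TPM. Zap70 was far above the sum of the 4 T markers in every WT tumour. WT tumour 3, with the lowest sum of all 18 samples, had 27.0 TPM of Zap70. Outside WT tumours Zap70 was also above the sum, as with 5.37 against 0.878 TPM in WT normal liver 1. WT non-tumour 3 had 10.1 against 1.33 TPM, and the exception was GKO tumour 3, with 1.06 against 1.14 TPM. GKO tumours had 24.7, 20.02 and 1.06 TPM of Zap70. The call of Zap70 was lost without WT tumour 1 or 2 or WT non-tumour 1 or 3 (limma adjusted p from 0.0927 to 0.114). WT tumours and WT non-tumours did not overlap, as for 24.8% of the genes tested. Without Zap70, the T cell list summed to 6.57, 10.5 and 36.2 TPM in WT tumours and 12.4, 35.5 and 38.3 TPM in WT non-tumours, in ascending order. The 35.5 TPM, of WT non-tumour 2, held 17.02 TPM of Themis, and without Themis its sum was 18.5 TPM. Zap70 overlaps Gm18828, a pseudogene on the opposite strand, and the use of strand in counting is not given in the sources used here.

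**Figure D5:**
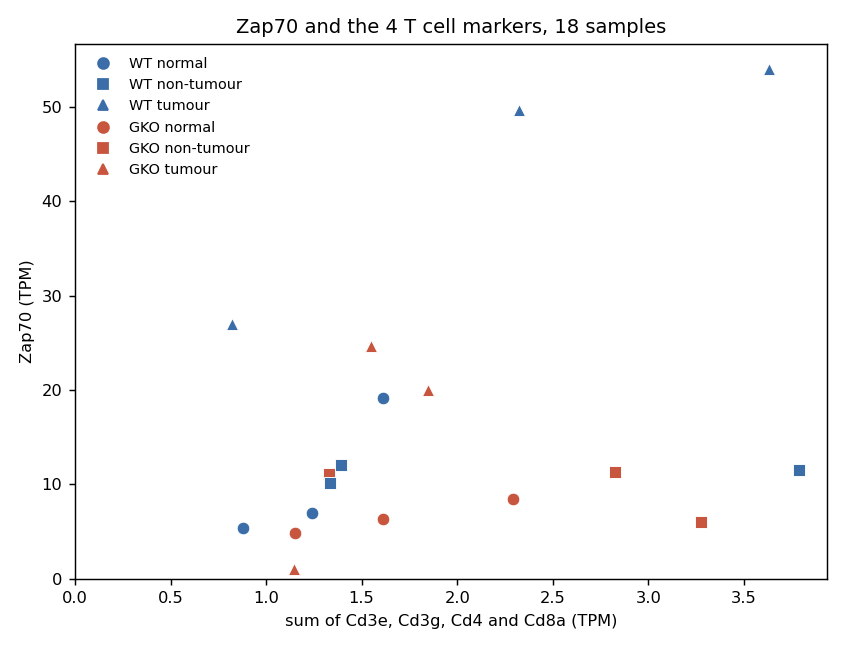
Zap70 (TPM, vertical axis) against the sum of Cd3e, Cd3g, Cd4 and Cd8a (TPM, horizontal axis), both linear from 0, with 1 point per sample, circles for normal livers, squares for non-tumours, triangles for tumours, blue for WT and red for GKO. The 3 WT tumours lie at 27.0 TPM of Zap70 or above, at marker sums from 0.823 to 3.63 TPM, and WT non-tumour 1 with the highest marker sum of 3.79 TPM has 11.5 TPM of Zap70.

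Derl3, a protein of the endoplasmic reticulum that is abundant in plasma cells, had 205.7, 151.3 and 35.3 TPM in WT tumours and 1.53, 3.87 and 13.9 TPM in WT non-tumours, and rose by 4.20 (standard error 0.84, limma adjusted p = 0.043). The antibody genes did not go with it, as Jchain had 0.240, 1.02 and 0.495 TPM and Igkc 40.5, 46.9 and 20.02 TPM in the same tumours. Its call was lost without any WT non-tumour or without WT tumour 1 or 2 (limma adjusted p from 0.0509 to 0.163). Derl3 had 3.58, 21.8 and 1.47 TPM in GKO tumours, without overlap with WT tumours, as for 14.7% of the genes tested. The log2 fold change of GKO against WT tumours was -4.04 (standard error 0.95, limma adjusted p = 0.374).

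Markers of other cells moved between the same samples. In GKO tumours against GKO non-tumours 2 of 12 Kupffer cell and macrophage genes were called lower, against 3.97% of all genes. They were Marco (-3.25, adjusted p = 0.042) and Timd4 (-2.06, adjusted p = 0.043), by limma. The summed level of the list ran from 242.7 to 608.3 TPM in tumours and 289.9 to 1433 TPM in non-tumours. Of 10 endothelial genes 3 were called higher, against 7.75% of all genes, and of 10 fibroblast and stellate genes 5 were called higher and 1 lower. Pan-leukocyte genes were lower for 8 of 10, against 37.3% of all genes, with 0 called. They summed to 70.6 to 114.2 TPM in tumours and 81.4 to 144.5 TPM in non-tumours. Neutrophil genes were lower for 4 of 4, with 0 called. Cholangiocyte genes were higher for 6 of 6, with 0 called and 4 at an unadjusted p under 0.05. Over all 14092 genes tested 8829 were higher, and 3046 were higher at an unadjusted p under 0.05. The cholangiocyte genes summed to 86.0 to 1022 TPM in tumours and 64.5 to 99.0 TPM in non-tumours. The part of these shifts in the levels of the lymphocyte markers was not tested. No list had a gene at 0 in all 18 samples.

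The genes most alike to the markers over the 18 samples were found by Pearson's r with the mean centred log2 profile of the 6 T and NK markers and of the 4 B markers, among 13892 genes. This is a description, since the samples share group and depth. For the T and NK markers the 8 genes were Coro1a (0.865), the chemokine receptor Cxcr3 (0.840), the T cell receptor alpha constant region Trac (0.826), the chemokine Ccl5 (0.825), Rac2 (0.823), Sp110 (0.821), Myo1g (0.820) and Cd52 (0.799). Coro1a, an actin-binding protein, and Rac2, a small GTPase, are expressed throughout the blood lineages. The T cell receptor beta gene Trbc2 had r = 0.658 (place 87), and Zap70 had r = 0.259 (place 2505).

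For the B markers the first gene was Igkc (r = 0.890), and another light chain, Iglc3, was the third (0.841). The others were Adgrl1 (0.858), the integrin Itga4 (0.818), Gm43597 (0.814), Tmem47 (0.809), Atoh8 (0.808) and Tia1 (0.802). Alb had r = -0.011 with the T and NK profile and -0.374 with the B profile.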

How the data were processed

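RNA-seq libraries of 18 mouse liver samples were analysed as TPM values that the authors deposited. Per the labels and the submitters' processing notes, reads were aligned with STAR 2.7.3a to mm10 and counted with featureCounts 2.0.0; the annotation, the use of strand and the step from counts to TPM are not given in the sources used here. Columns were matched to samples by name, and 0 columns had no sample. TPM corrects for length and total, so a few very abundant genes can lower all others.

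Groups were compared with limma 3.58.1 in R 4.3.3 (trend = TRUE) on log2(TPM + 1), each comparison on its own samples, among genes whose mean there reached 0.5 TPM, at a Benjamini-Hochberg adjusted p under 0.05. Levels were summarised with Python 3.11.15, numpy 2.4.6 and pandas 2.3.3, and drawn with matplotlib 3.10.9. With GENCODE exonic lengths for 54809 genes, reads were recovered from TPM: 97.95% to 98.67% of values of up to 30 reads lay within 0.02 of a whole number. These gave the read numbers and the voom alternative. The depth of 11925055 to 20751348 reads on genes leaves the T cell markers with few reads. On simulated data of 3 against 3 tumour samples, 170 of 200 genes changed by 2 on the log2 scale were recovered among 13959 tested, with 20 false calls. For the difference between genotypes of tumours against non-tumours it was 93 of 200 among 14105, with 6 false calls. The simulation gave every gene the same spread beyond counting error, so it does not give the recovery of widely spread markers.

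Every main fit was unpaired, and the replicate numbers entered only as a block in an alternative. Samples of different genotypes cannot come from the same mouse. By deviations from group means, same-numbered GKO and WT tumours had r of 0.101, 0.120 and 0.197, and the other pairs -0.242 to 0.114. The markers and gene lists were chosen with earlier results of these data known. Named genes are the 10 markers, listed genes past the test (at most 5 per list and comparison) and the 8 genes most alike to each marker profile; Igha, Igkc, Ighg2c and the genes given as values outside this rule were chosen after their values were seen. As alternatives, the fits were repeated with a pseudocount of 0.1, no filter, median centring, all 18 samples in one fit, the replicate block, voom, WT tumours 1 and 2 averaged, and each sample left out. A gene of the B cell list is not reported here and was left out of that list's counts.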

Additional observations from a re-analysis of the deposited data

How the results depend on the processing

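The log2 fold changes of markers with an unadjusted p under 0.1 kept their direction under every alternative; of 699 values of the other markers under alternatives, 75 had the other sign. The number of markers called stayed at 0 in every comparison and alternative, except 1 (Ighm) in GKO tumours against GKO non-tumours with the replicate block. Without the filter the calls of Cd7, Cd79b, Trbc2, Zap70 and Derl3 were lost (limma adjusted p from 0.0518 to 0.106). Those of Cd7, Cd79b, Trbc2 and Zap70 were also lost with all 18 samples in one fit (0.0667 to 0.153), those of Cd7 and Derl3 with voom (0.0504 and 0.0511), those of Zap70 and Derl3 with WT tumours 1 and 2 averaged (0.111 and 0.159) and that of Derl3 with the block (0.0892). Genes called in GKO against WT tumours numbered 3. They numbered 0 with a pseudocount of 0.1, no filter, median centring, the replicate block, voom or WT tumours 1 and 2 averaged. With all 18 samples in one fit 78 were called, and 0 to 147 with 1 sample left out (147 without WT tumour 3). In WT tumours against non-tumours 592 became 297 without the filter, 1533 with all 18 samples, 361 with the block, 185 with the averaged tumours, and 163 (without WT tumour 2) to 1363 (without WT tumour 3). In GKO tumours against non-tumours 1652 became 589 without the filter, 2627 with all 18 samples, and 229 (without GKO non-tumour 3) to 1567. In WT non-tumours against normal livers 1 became 4 with the pseudocount of 0.1, 0 without the filter, 3 with all 18 samples, 0 with the block or voom, and 0 to 4 with 1 sample left out. In GKO it was 0, and 0 to 2. The difference between genotypes of tumours against non-tumours had 2 genes, and 0 with the pseudocount of 0.1 or voom, 4 without the filter, 12 with all 18 samples, and 2 to 91 (91 without WT tumour 3); that of non-tumours against normal livers had 0, and 2 without the filter and 0 to 2. The causes were not tested. With a median of 8 to 15 reads, levels of the 4 T cell markers, Gzma, Nkg7 and Ms4a1 are limited by depth.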

Other observations

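The following genes were picked once their levels were known, so their p-values and lack of overlap are descriptions and not tests. Cxcl9, a chemokine that draws activated T cells through the receptor Cxcr3, had 21.4, 32.6 and 10.7 TPM in WT tumours, 8.68, 4.95 and 4.64 TPM in WT non-tumours and 8.97, 6.24 and 10.2 TPM in GKO tumours. The WT tumours did not overlap either group, as for 24.8% of genes tested against WT non-tumours and 14.7% against GKO tumours. By limma the adjusted p was 0.102 against WT non-tumours and 0.511 against GKO tumours. In the same WT tumours the sum of the 4 T cell markers overlapped that of the WT non-tumours.

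Cd1d1, the molecule that presents lipids to natural killer T (NKT) cells and that other liver cells also express, had 87.4, 84.8 and 65.8 TPM in WT tumours. It had 162.8, 135.8 and 202.1 TPM in WT non-tumours and 259.9, 98.4 and 181.9 TPM in GKO tumours. The WT tumours lay below both groups without overlap, where 24.8% and 14.7% of genes tested did not overlap in either direction. By limma the adjusted p was 0.072 against WT non-tumours and 0.51 against GKO tumours. The gene segments of the invariant NKT cell receptor were not measurable at this depth. Trav11 had 0 reads in all 18 samples, and Traj18 had 2 reads in GKO non-tumour 1, 1 read in WT tumour 1 and 0 in the rest.

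Themis, a T cell signalling protein, had 1624 reads (17.02 TPM) in WT non-tumour 2 and 0.833 TPM or less in each of the other 17 samples. Cd3e in that sample had 0.270 TPM and Cd3g 0.450 TPM.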
